A study of Mus musculus with 18 samples.

Results

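The 10 genes studied here serve the transport of salt, bicarbonate, acid, potassium and water across the membranes of colonocytes. They were measured by bulk RNA sequencing of mouse colon. They were taken by symbol from the deposited gene table, which lists 36451 genes, and all 10 were found: the carbonic anhydrases Car1 and Car4, the exchangers Slc26a3 and Slc9a3, the water channels Aqp4 and Aqp8, the proton and potassium pump gene Atp12a, and the sodium channel subunits Scnn1a, Scnn1b and Scnn1g. The table holds 18 libraries of colon, 6 in each of 3 groups. AKK libraries came from mice gavaged with Akkermansia muciniphila, a mucus-degrading gut bacterium, at 0.1 mL a dose, weekly over 6 weeks. Model libraries came from mice that drank 3% dextran sulfate sodium (DSS), a polymer that injures the colon lining, for 1 week and then received phosphate-buffered saline by gavage. Control libraries came from male C57BL/6J mice, 6 weeks old, housed free of specific pathogens. The labels do not say whether AKK mice also drank DSS, and they give an age, sex and strain for Control mice only. The design text names the ferroptosis agonist erastin, which no group's description lists. The stated question was how the bacterium acts on colitis. The library numbers of Control lie apart from those of AKK and Model, so a cohort difference between Control and the other groups cannot be told apart from treatment. Nothing states that the libraries of a group came from separate animals, so the p-values measure the spread between these libraries, which may be technical.

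Colonocytes take up sodium chloride mainly by paired exchange: Slc9a3 brings in sodium for protons and Slc26a3 brings in chloride for bicarbonate, and carbonic anhydrases supply both from carbon dioxide and water. In the distal colon of rodents the epithelial sodium channel, assembled from alpha, beta and gamma subunits, adds aldosterone-driven sodium uptake, and the colonic proton and potassium pump reclaims potassium. Water follows the salt, in part through aquaporins. Impaired salt uptake by these routes is a known feature of inflammatory diarrhoea.

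Promoter sequences are shown for 4 of the genes, since Scnn1g and Scnn1b are neighbours on chromosome 7 of which only the gamma subunit gene passed the test between groups, and Slc26a3 and Aqp8 had the highest correlation among the 10 genes. The windows are RefSeq's, on build GRCm38.p6, plus strand, and run from 250 bases before to 50 bases after the gene's start; 6 of the 10 genes had an entry (also Car4 and Slc9a3). Car1, Aqp4, Atp12a and Scnn1a had none. Capitals mark a motif match.
Scnn1g, chr7:121734229-121734528: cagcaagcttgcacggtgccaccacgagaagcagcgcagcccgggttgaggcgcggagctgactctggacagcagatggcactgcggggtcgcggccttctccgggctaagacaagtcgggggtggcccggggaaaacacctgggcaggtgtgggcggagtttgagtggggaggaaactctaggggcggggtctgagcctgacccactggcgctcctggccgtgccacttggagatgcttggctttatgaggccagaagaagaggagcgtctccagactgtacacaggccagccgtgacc
Scnn1b, chr7:121864788-121865087: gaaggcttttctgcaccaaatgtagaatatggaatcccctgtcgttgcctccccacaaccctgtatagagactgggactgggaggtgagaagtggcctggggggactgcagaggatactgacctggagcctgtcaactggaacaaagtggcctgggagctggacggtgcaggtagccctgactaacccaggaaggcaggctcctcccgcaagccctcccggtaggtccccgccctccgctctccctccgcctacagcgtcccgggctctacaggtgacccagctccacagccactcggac
Aqp8, chr7:123462044-123462343: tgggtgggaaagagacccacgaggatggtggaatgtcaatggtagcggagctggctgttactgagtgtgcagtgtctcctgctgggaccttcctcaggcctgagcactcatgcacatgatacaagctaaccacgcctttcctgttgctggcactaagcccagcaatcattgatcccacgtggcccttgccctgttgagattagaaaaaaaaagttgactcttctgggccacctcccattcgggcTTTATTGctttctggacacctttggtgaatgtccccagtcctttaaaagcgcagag
Slc26a3, chr12:31437969-31438268: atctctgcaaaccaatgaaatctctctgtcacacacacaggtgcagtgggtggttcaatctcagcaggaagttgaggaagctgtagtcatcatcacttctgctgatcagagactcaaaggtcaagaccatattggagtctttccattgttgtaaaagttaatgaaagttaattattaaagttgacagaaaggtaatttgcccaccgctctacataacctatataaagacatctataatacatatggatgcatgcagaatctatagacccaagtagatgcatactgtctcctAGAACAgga
For description, 3 motifs were searched on both strands of these windows and of all 32851 RefSeq mouse promoters of the same length. CNATAAA, a form bound by the intestinal CDX factors, stood in 10.9% of all promoters and in those of Aqp8, at bases 245 to 251 on the minus strand, and of Car4, at bases 292 to 298. AGAACA, a core of steroid receptor sites, stood in 19% of all promoters and in that of Slc26a3, at bases 292 to 297. CAAAGTNCA, an HNF4 motif, stood in 1.41% of all promoters and in 0 of the 6 windows. No match overlapped another, and a match is a description of letters only. The Slc26a3 window lies inside the gene's interval in the annotation, which begins at an upstream start. Neither sodium channel window held any of the 3 motifs.

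Libraries held 60665457 to 82589848 counts in AKK, 58841661 to 79147073 in Model and 53873744 to 65705141 in Control. Of the 36451 genes, 14007 had at least 1 FPKM (a level per length and per library size) in at least 6 libraries and were tested with edgeR. All 10 genes were among them, but Scnn1g had exactly 6 such libraries, 3 AKK, 3 Model and 0 Control, so it entered through the groups where it was high. Markers of epithelium were present in every library, with summed FPKM of 3904 to 4564 in AKK, 1033 to 4767 in Model and 4505 to 6536 in Control. The 6 kidney and stomach markers, from organs that also use several of these genes, summed to at most 0.382 FPKM in any library. Model_1337 stood apart: its squamous epithelium markers summed to 5856 FPKM, against at most 1.40 in the other Model libraries, and it held the lowest epithelial sum. In Model_1341, mitochondrial genes took 16.989% of counts, the highest share of the 18 libraries. Control_2286 had the highest sum of 7 small intestine markers, 814.5 FPKM, followed by Control_2668 at 375 and Control_2285 at 362.7.

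For 9 of the 10 genes no difference between groups passed the test against the spread of the libraries. Only Scnn1g passed edgeR's quasi-likelihood test at an adjusted p under 0.05, and it had entered the test only through AKK and Model libraries, where it is high. That call is given as a description. With no filter on low values its adjusted p in edgeR was 0.0227 in Model against Control, still called, and 0.083 in AKK against Control, no longer called. It was 1 of the 10 genes called in Model against Control, where 20.1% of all genes tested were called and 12.4% were called higher. It was also the only one of the 10 called in AKK against Control, where 6.20% of all genes were called and 3.72% were called higher. In AKK against Model 0 of the 10 genes were called by edgeR, against 0.0214% of all genes, or 3 genes, which were all higher. DESeq2 also called 0 of the 10 in that comparison and 12 of all genes. An unadjusted p under 0.05 with edgeR was reached there by 0 of the 10 and by 941 of all genes. None of the 10 genes had ranges that did not overlap between 2 groups; the share of all genes with such ranges was 2.91% in Model against Control, 0.800% in AKK against Model and 8.62% in AKK against Control. Because Model and AKK are both set against the same Control libraries, their differences from it are not independent of each other.

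The median log2 change of the 10 genes was 0.24 in Model against Control, 0.11 in AKK against Model and 0.56 in AKK against Control, against medians of -0.00038, -0.023 and -0.0097 over all genes tested. Log2 changes were above 0 for 6, 7 and 8 of the 10 genes in those comparisons. Without scaling beyond the library total, the share of higher genes among all genes called was 73.08% in Model against Control and 84.38% in AKK against Control, against 61.79% and 59.95% with TMM scaling. In bulk tissue a lower number of cells of a type and less RNA per cell cannot be told apart, and this holds for every level below.

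**Figure D1:**
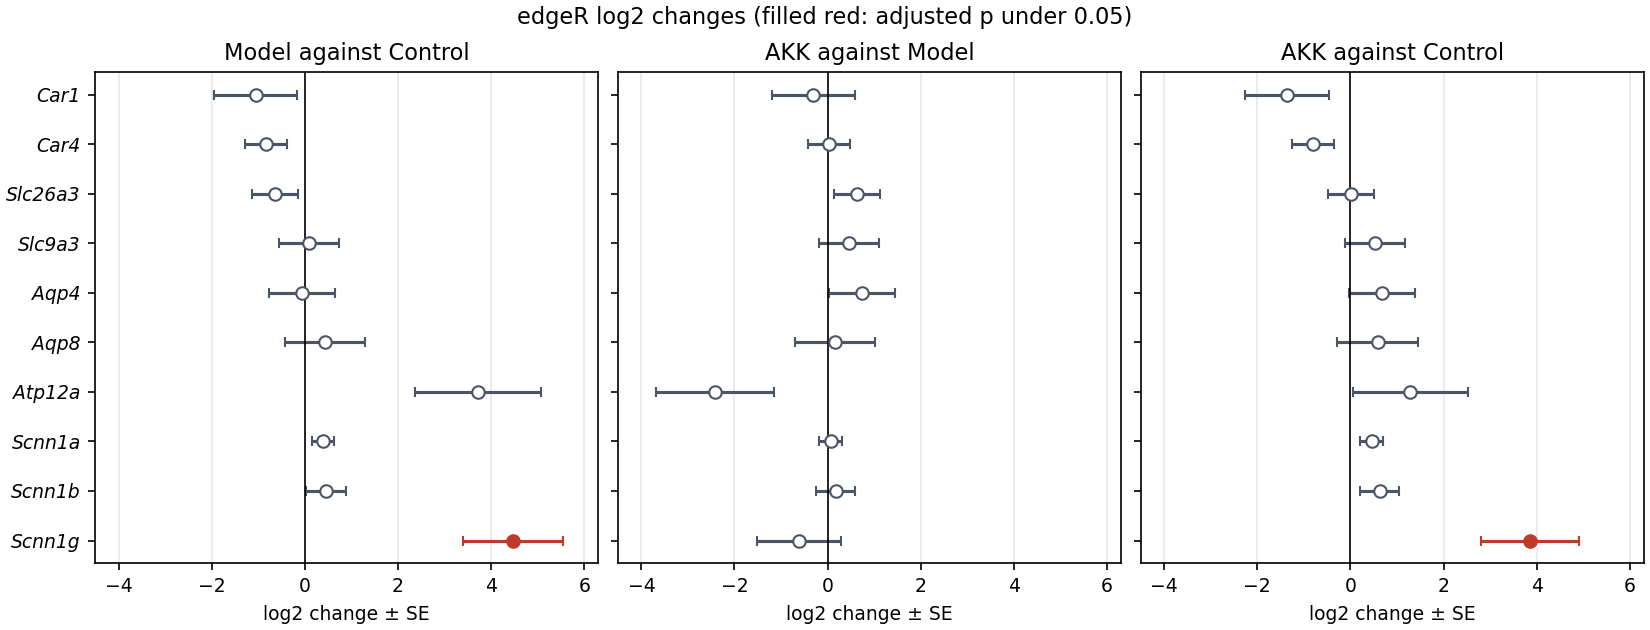
The log2 changes of the 10 genes (x axis) in Model against Control, AKK against Model and AKK against Control. Bars are 1 SE, derived from edgeR's F statistic. Filled red points passed an adjusted p under 0.05. Scnn1g is the 1 red point in the outer panels, at 4.47 and 3.85, and the bars of Atp12a are wider than those of Scnn1g.

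Levels per length spanned several orders of magnitude, and their order differed in part between groups. By mean FPKM in Control colon the order was Car1, Car4, Aqp8, Slc26a3, Slc9a3, Aqp4, Scnn1a, Scnn1b, Atp12a and Scnn1g. The range of Car1 lay wholly above that of Car4 there, that of Car4 overlapped only that of Aqp8, and those of Aqp8, Slc26a3, Slc9a3 and Aqp4 overlapped one another, as did those of Aqp4 and Scnn1a. The range of Scnn1b lay wholly below that of Scnn1a and overlapped that of Atp12a, and the range of Scnn1g lay wholly below both. In AKK and in Model libraries Aqp8 stood above Car4 by its mean, and Slc9a3 and Aqp4 above Slc26a3, but the ranges overlapped in each case. In Model the mean of Atp12a, 17.72 FPKM, also stood above those of Scnn1a (15.11) and Scnn1b (4.137), again with overlapping ranges.

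Car1, a cytosolic carbonic anhydrase (ENSMUSG00000027556, mm10 chr3:14766216-14808365, minus strand), was one of the most abundant messages of the colon. It ranged over 528.3 to 5801 FPKM in AKK (median 1328), 57.88 to 8021 in Model (median 1084) and 1071 to 8845 in Control (median 5271). It took between 0.149% and 1.21% of all counts in Control libraries, and its level ranked as high as 2 of 36451 genes in Control and in Model and as low as 762 in Model_1337. The median was lower in AKK and in Model than in Control, with overlapping ranges. Car1 had a log2 change of -1.06 ± 0.89 (SE) in Model against Control (edgeR, adjusted p = 0.414) and -1.36 ± 0.90 in AKK against Control (adjusted p = 0.357), which did not pass the test. It was -0.30 ± 0.89 in AKK against Model (edgeR, adjusted p = 0.951). Without Model_1337, the change in Model against Control was -0.80 (edgeR, adjusted p = 0.515).

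Car4, a carbonic anhydrase anchored on the outer face of the apical membrane (ENSMUSG00000000805, chr11:84957786-84966044, plus strand), was the steadier of the carbonic anhydrases. Its level ran from 82.87 to 248.9 FPKM in AKK (median 133.1), 18.3 to 225.7 in Model (median 121.4) and 136.3 to 320.1 in Control (median 233.9). In Model 0 of 6 libraries, and in AKK 1 of 6, exceeded the Control median, although the ranges overlapped. Car4 had a log2 change of -0.84 ± 0.45 in Model against Control (edgeR, adjusted p = 0.193) and -0.80 ± 0.45 in AKK against Control (adjusted p = 0.274), neither past the threshold. For AKK against Model it was 0.031 ± 0.45 (edgeR, adjusted p = 0.99). Of 14 other carbonic anhydrase genes, 7 were tested and 0 were called in any comparison by edgeR, with Car11 alone at an unadjusted p under 0.05 and called by DESeq2, in AKK against Control. Their median log2 change was -0.24 in Model against Control, 0.079 in AKK against Model and -0.40 in AKK against Control. Among all genes tested, edgeR called 20.1%, 0.0214% and 6.20% in those comparisons, so 0 of 7 says little about this family.

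Slc26a3, the apical chloride and bicarbonate exchanger (ENSMUSG00000001225, chr12:31390871-31473917, plus strand), had similar medians in Model and Control. Levels were 26.77 to 89.14 FPKM in AKK (median 55.42), 6.782 to 55.84 in Model (median 38.86) and 18.05 to 115 in Control (median 39.93). AKK had the highest median, and Control the widest range of FPKM. Slc26a3 gave a log2 change of -0.63 ± 0.49 in Model against Control (edgeR, adjusted p = 0.374), 0.64 ± 0.49 in AKK against Model (adjusted p = 0.781) and 0.0066 ± 0.49 in AKK against Control (adjusted p = 0.995).

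Slc9a3, the apical sodium and proton exchanger also known as NHE3 (ENSMUSG00000036123, chr13:74121457-74167163, plus strand), was near its partner exchanger in level. It spanned 44.99 to 102.8 FPKM in AKK (median 80.97), 0.4813 to 109.8 in Model (median 56.17) and 25.89 to 97.71 in Control (median 50.98). The low Model value was Model_1337, with 175 counts, while the next Model library had 29.06 FPKM. Model against Control gave a log2 change of 0.082 ± 0.65 (edgeR, adjusted p = 0.942), AKK against Model 0.45 ± 0.65 (adjusted p = 0.888) and AKK against Control 0.54 ± 0.65 (adjusted p = 0.633). Without Model_1337 the first of these was 0.34 and the second 0.19 (edgeR, adjusted p = 0.528 and 0.967).

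Among 12 other genes of electroneutral salt exchange and its scaffolds, 10 were tested. In Model against Control 3 fell and 0 rose, beside 20.1% called among all genes tested, and the median log2 change was -0.55. Slc9a3r1, a scaffold that binds NHE3, fell by 0.62 ± 0.19 on the log2 scale (edgeR, adjusted p = 0.0328), with 93.3 ± 22.1 FPKM in Model and 142 ± 33.4 in Control (SD, n = 6 each). Slc9a8, a sodium and proton exchanger, was also among those that fell. In AKK against Control Slc9a3r1 fell by 0.68 ± 0.19 (edgeR, adjusted p = 0.0455), whereas Slc9a3r2, a related scaffold, rose by 0.65 ± 0.17 (adjusted p = 0.0296), with 16.1 ± 1.75 FPKM in AKK and 9.57 ± 2.88 in Control. None of these 10 genes were called in AKK against Model by edgeR or DESeq2, with 1, Slc9a8, at an unadjusted p under 0.05, and their median log2 change was 0.18. In AKK against Control it was -0.25.

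Aqp8, an aquaporin of surface colonocytes (ENSMUSG00000030762, chr7:123462291-123468004, plus strand), had the higher level of the pair of water channels. It ranged over 38.69 to 411.9 FPKM in AKK (median 224.2), 15.57 to 401.8 in Model (median 144.9) and 21.15 to 307.9 in Control (median 54.15). Control split into Control_2285 and Control_2286 at 307.9 and 291.8 FPKM and 4 libraries at 82.79 or below. Control_2286 also had the highest sum of small intestine markers, whose part in this level was not tested. AKK had 4 libraries at 200.1 or above and the other two at 53.97 and 38.69. The log2 change was 0.43 ± 0.86 in Model against Control (edgeR, adjusted p = 0.753), 0.15 ± 0.86 in AKK against Model (adjusted p = 0.974) and 0.58 ± 0.86 in AKK against Control (adjusted p = 0.705).

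Aqp4, the basolateral water channel (ENSMUSG00000024411, chr18:15389496-15410982, minus strand), followed a similar pattern. Values ran from 17.49 to 108.9 FPKM in AKK (median 78.03), 5.243 to 68.74 in Model (median 41.07) and 7.439 to 95.22 in Control (median 26.04). The highest library had 6.23 times the FPKM of the lowest in AKK, 13.1 times in Model and 12.8 times in Control, and the groups overlapped. The log2 change was -0.060 ± 0.71 in Model against Control (edgeR, adjusted p = 0.961), 0.73 ± 0.71 in AKK against Model (adjusted p = 0.819) and 0.67 ± 0.71 in AKK against Control (adjusted p = 0.576). Of 10 other aquaporin genes, 9 were in the table, 2 were tested and 0 were called in any comparison by edgeR or DESeq2, with 0 at an unadjusted p under 0.05. Their median log2 change was -0.38 in Model against Control, 0.20 in AKK against Model and -0.18 in AKK against Control. Beside the 20.1%, 0.0214% and 6.20% of all genes that edgeR called in those comparisons, 0 of 2 says little about aquaporins.

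Atp12a, the catalytic subunit of the colonic proton and potassium pump (ENSMUSG00000022229, chr14:56365068-56388550, plus strand), was low in most libraries and high in a few. In order of library number, AKK libraries had 1.26, 0.4562, 0.3447, 1.168, 16.35 and 0.6928 FPKM. Model libraries had 5.833, 20.3, 0.539, 0.345, 77.78 and 1.501 FPKM. Control libraries had 4.137, 0.2905, 0.425, 0.4647, 0.5134 and 1.896 FPKM. Single libraries set the group means: AKK_1309 at 16.35 FPKM and Model_1340 at 77.78 stood far above the rest of their groups, and the lowest values of all 3 groups were alike. The log2 change was 3.71 ± 1.35 in Model against Control (edgeR, adjusted p = 0.0601), -2.42 ± 1.27 in AKK against Model (adjusted p = 0.738) and 1.29 ± 1.24 in AKK against Control (adjusted p = 0.536). The first of these passed the threshold with DESeq2 (adjusted p = 0.00866), and it was 2.00 without Model_1340 (edgeR, adjusted p = 0.252). With edgeR it also passed without AKK_1309 (adjusted p = 0.0361), Model_1338 (0.0423), Model_1339 (0.0417), Model_1341 (0.0455) or Control_2285 (0.0458), and without the 4 libraries above 70000000 counts (0.0432). It passed in 5 of 18 fits without 1 library and in 2 of 16 other settings. AKK_1309 is not part of this comparison and enters it only through the shared fit. Voom with library weights gave 0.47 (adjusted p = 0.852) and limma on log2(FPKM + 1) 1.66 (adjusted p = 0.197). The exact permutation test gave an unadjusted p of 0.132 (adjusted 0.329). The change in AKK against Control was -0.82 without AKK_1309. Atp12a shares 557 of its 4016 exon bases with the antisense gene Gm10873, which reached at most 0.609 FPKM; the kit marked strand, but the counting step's use of strand is not stated in the labels.

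**Figure D2:**
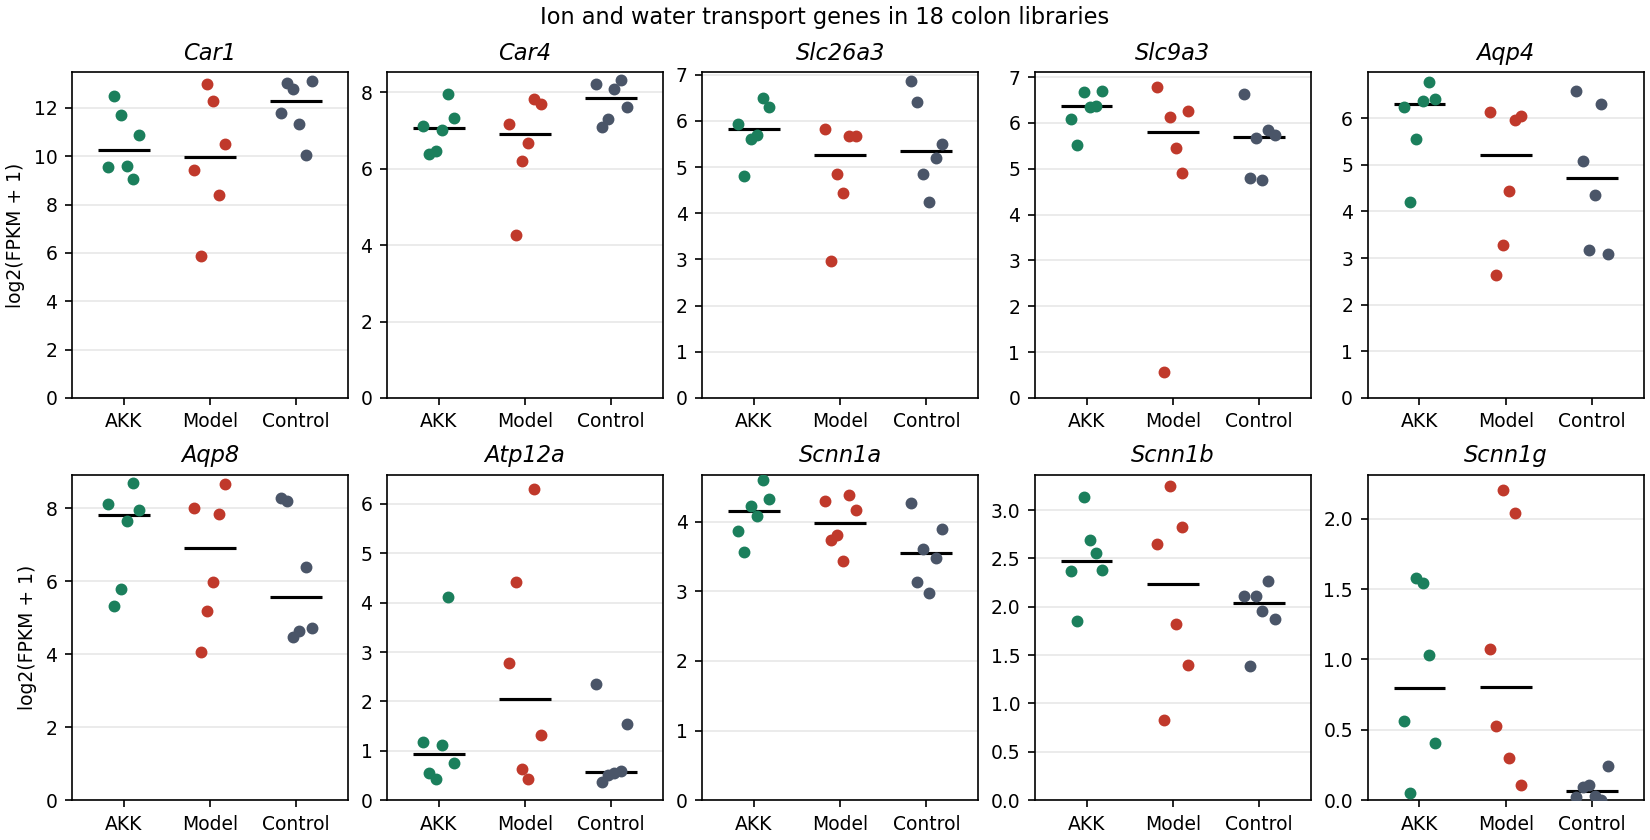
Each panel shows 1 gene: points are the 6 libraries of AKK, Model and Control, the y axis is log2(FPKM + 1), starting at 0 with its own scale in each panel, and the bar is the group median. Scnn1g points lie near 0 in Control, while for the other 9 genes the groups overlap broadly; the low Slc9a3 point is Model_1337.

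Scnn1a encodes the alpha subunit of the epithelial sodium channel (ENSMUSG00000030340, chr6:125320659-125344933, plus strand) and varied least among the 10 genes. It ranged over 10.82 to 23.2 FPKM in AKK (median 16.8), 9.8 to 19.94 in Model (median 14.95) and 6.848 to 18.27 in Control (median 10.71). In AKK 6 of 6 libraries and in Model 5 of 6 exceeded the Control median, with overlapping ranges. Scnn1a gave a log2 change of 0.39 ± 0.24 in Model against Control (edgeR, adjusted p = 0.264), 0.068 ± 0.24 in AKK against Model (adjusted p = 0.964) and 0.46 ± 0.24 in AKK against Control (adjusted p = 0.251).

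Scnn1b encodes the beta subunit (ENSMUSG00000030873, chr7:121865038-121918514, plus strand). Its values were 2.62 to 7.797 FPKM in AKK (median 4.554), 0.777 to 8.497 in Model (median 3.91) and 1.617 to 3.806 in Control (median 3.102). Model spread both above and below the whole Control range. The log2 change was 0.45 ± 0.42 in Model against Control (edgeR, adjusted p = 0.462), 0.18 ± 0.42 in AKK against Model (adjusted p = 0.943) and 0.63 ± 0.42 in AKK against Control (adjusted p = 0.364). The gene body overlaps Cog7 on the opposite strand, at up to 5.41 FPKM, with 0 shared exon bases.

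Scnn1g encodes the gamma subunit (ENSMUSG00000000216, chr7:121734479-121768475, plus strand) and ends 96.56 kb before Scnn1b begins; Aqp8 starts a further 1544 kb beyond the end of Scnn1b. It had few or no counts in Control colon and was higher in AKK and in Model. In the same order, AKK libraries had 0.4737, 0.03592, 1.994, 1.915, 1.041 and 0.3256 FPKM, from 100, 8, 402, 519, 274 and 84 counts. Model libraries had 1.108, 0.4436, 3.61, 0.2297, 3.125 and 0.07631 FPKM, from 227, 87, 737, 50, 645 and 21 counts. Control libraries had 0.01519, 0.06909, 0.07541, 0.02197, 0 and 0.1841 FPKM, from 3, 15, 14, 4, 0 and 34 counts. In AKK 5 of 6 libraries, and in Model 5 of 6, lay above every Control library; the exceptions were AKK_1303 and Model_1341.

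The means were 0.964 ± 0.834 FPKM in AKK, 1.43 ± 1.55 in Model and 0.0610 ± 0.0675 in Control (SD, n = 6 each). Scnn1g rose in Model against Control by a log2 change of 4.47 ± 1.08 (edgeR, adjusted p = 0.0106), a fitted fold of 22.1. It rose in AKK against Control by 3.85 ± 1.05 (edgeR, adjusted p = 0.0387), a fitted fold of 14.4, a call that was lost with no filter on low values (adjusted p = 0.083). In AKK against Model the log2 change was -0.62 ± 0.91 (edgeR, adjusted p = 0.892). A two-sided exact permutation test of mean log2(FPKM + 1) gave unadjusted p = 0.00433 for Model against Control and 0.00866 for AKK against Control, where the smallest p it allows is 0.00216. On that scale, which understates changes of low genes, the differences were 0.96 and 0.78.

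The call for Model against Control held in each of the 18 fits that left out 1 library (edgeR, adjusted p 0.00477 to 0.027). Some of these fits left out an AKK library, which is not part of that comparison and enters it only through the shared fit. All kept the 14007 genes chosen on all 18 libraries. Scnn1g, with exactly 6 libraries at 1 FPKM or more, was therefore not filtered anew when 1 of those was left out. Since it entered only through AKK and Model libraries, neither these fits nor the exact test is independent support for the call. It was lost with limma on log2(FPKM + 1) (adjusted p = 0.0682), the exact permutation test adjusted over all genes (0.0864), voom with library weights (0.0953) and distal hindgut markers as a covariate in edgeR (0.0678). The call for AKK against Control held in 8 of the 18 fits, with adjusted p of 0.0231 to 0.0882 in edgeR. Every fit that left out a Model library, a group outside this comparison, kept it. Of the fits that left out an AKK or Control library, only those without AKK_1303 (0.0283) and Control_2668 (0.0231) kept it. It was lost without AKK_1302 (0.0606), AKK_1305 (0.0738), AKK_1306 (0.0803), AKK_1309 (0.0737) or AKK_1310 (0.0556). It was likewise lost without Control_2285 (0.0646), Control_2286 (0.0839), Control_2287 (0.0591), Control_2288 (0.0882) or Control_2289 (0.0657). It was also lost without the 4 libraries above 70000000 counts (edgeR, adjusted p = 0.209), with no filter on low values (0.083), and with the smooth muscle (0.0512) or hindgut (0.11) markers as a covariate. With limma it was lost on log2(FPKM + 1) (adjusted p = 0.176) and on log2(FPKM + 0.1) (0.0837).

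Markers of other cell types were compared between the same groups, where edgeR called 20.1% of all genes tested in Model against Control. In AKK against Control it called 6.20%. Of 6 fibroblast markers 5 rose in Model against Control and 4 in AKK against Control by edgeR, with sums of 317.9 to 550.2 FPKM in AKK, 177.1 to 693 in Model and 141.6 to 191.3 in Control. Of 6 leukocyte markers 3 rose in Model against Control and 2 in AKK against Control, with sums of 756.5 to 1530 FPKM in AKK, 205 to 2661 in Model and 267.6 to 518.3 in Control. Of 10 surface colonocyte markers 2 fell in Model against Control and 1 in AKK against Control by edgeR, counts near the shares over all genes. DESeq2 called 3 in each. The log2 changes of all 10 were below 0 in both comparisons, with medians of -0.589 and -0.811. Sums of these markers were 4355 to 6748 FPKM in AKK, 1791 to 7556 in Model and 7339 to 9890 in Control. The AKK range thus lay wholly below that of Control. No marker of these 3 lists was at 0 in every library of a group, and their part in the Scnn1g result was not tested.

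The wider sodium route was tested through 13 genes, of which 12 passed the filter on low levels. In Model against Control 2 rose and 1 fell, beside 20.1% called among all genes tested, and the median log2 change was 0.17. Tsc22d3, which encodes the glucocorticoid and aldosterone-induced protein GILZ, rose by 1.04 ± 0.22 on the log2 scale (edgeR, adjusted p = 0.00556), with 19.5 ± 7.63 FPKM in Model and 9.07 ± 2.72 in Control (SD, n = 6 each). Furin, a protease that cleaves the channel's alpha and gamma subunits, rose by 0.49 ± 0.16 (edgeR, adjusted p = 0.0388). For the AKK comparisons with Model and with Control, 0 of the 12 were called by edgeR, beside 0.0214% and 6.20% of all genes tested. The medians were 0.021 and 0.14. An unadjusted p under 0.05 was reached by 0 against Model and by 4 against Control, of which DESeq2 called 2, Nedd4l and Tsc22d3.

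On the secretory side, 13 of 14 genes were tested. In Model against Control 2 rose and 0 fell, beside 20.1% called and 12.4% called higher among all genes tested. In AKK against Control 2 also rose and 0 fell, beside 6.20% called and 3.72% called higher; in AKK against Model 0 were called by edgeR or DESeq2, and 0 had an unadjusted p under 0.05. Best2, a bicarbonate-conducting anion channel known from mouse colonic goblet cells, rose on the log2 scale by 3.07 ± 0.81 in Model against Control (edgeR, adjusted p = 0.0156) and by 2.86 ± 0.80 in AKK against Control (adjusted p = 0.0423). It had 8.49 ± 7.38 FPKM in AKK, 9.51 ± 10.7 in Model and 1.09 ± 0.814 in Control (SD, n = 6 each). Kcnma1, a potassium channel of the BK type, rose by 0.55 ± 0.18 in Model against Control (edgeR, adjusted p = 0.0368) and by 0.63 ± 0.18 in AKK against Control (adjusted p = 0.0422). The median log2 change of the list was -0.32 in Model against Control, 0.23 in AKK against Model and -0.0065 in AKK against Control. Summed smooth muscle markers were 1481 to 2246 FPKM in AKK, 1412 to 3930 in Model and 713 to 2577 in Control, and goblet markers 3451 to 5691 in AKK, 336.5 to 5042 in Model and 2559 to 4487 in Control. Their part in these changes was not tested.

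Within groups each of the 10 genes except Scnn1a varied more than at least 92.1% of the genes tested. The within-group SD of log2(FPKM + 1) was 1.84 for Car1, larger than in 99.8% of all genes tested. It was 1.67 for Aqp8 and 1.63 for Atp12a, each above 99.4% of genes. For Slc9a3 it was 1.40 (98.9%), for Aqp4 1.35 (98.8%), for Slc26a3 0.92 (96.8%) and for Car4 0.88 (96.4%). Over all 18 libraries only the sodium channel subunits were lower, at 0.64 for Scnn1g (92.8%), 0.62 for Scnn1b (92.1%) and 0.41 for Scnn1a (81.5%). The SD of Slc9a3 includes Model_1337, at 0.4813 FPKM where the other Model libraries had 29.06 to 109.8. The SDs were not recomputed without that library, so this order may rest on it. Scnn1g reached 1 FPKM in only 6 libraries, and log2(FPKM + 1) understates the spread of such low values. This also holds for other low genes tested, so the shares above favour abundant genes such as Car1. The ratio of the highest to the lowest FPKM inside Control was 14.6 for Aqp8, 12.8 for Aqp4, 8.26 for Car1 and 2.35 for Car4. In this design, differences between groups that are small beside such spreads were not detectable.

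These within-group differences were shared between genes. With group means removed over the 18 libraries, 33 of 45 pairs had a Spearman rho above 0 and 12 below, and 5 passed a within-group permutation test of rho after adjustment over all 75 relations computed (100000 resamples), all 5 with rho above 0. The highest was that of Slc26a3 and Aqp8, with Pearson's r = 0.892 (permutation p = 4e-05, adjusted 0.00225) and rho = 0.867 (p = 8e-05, adjusted 0.003). Leaving out the 2 libraries farthest from the median gave r = 0.851, and leaving out Model_1337 gave r = 0.876. Aqp4 and Aqp8 followed, with r = 0.891 (permutation p = 0.00014, adjusted 0.00262) and rho = 0.848 (p = 0.00015, adjusted 0.00375), and r = 0.844 without the farthest 2. Chloride exchange and both water channels thus went up and down together from library to library.

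The other three pairs had lower coefficients. Slc26a3 and Aqp4 had r = 0.753 (permutation p = 0.00176, adjusted 0.022) and rho = 0.771 (p = 0.00122, adjusted 0.0183), and r = 0.594 without the farthest 2. Car4 and Aqp4 had r = 0.771 (permutation p = 0.00011, adjusted 0.00262) and rho = 0.752 (p = 0.00158, adjusted 0.0183), and r = 0.743 without the farthest 2. Slc26a3 and Scnn1a had r = 0.669 (permutation p = 0.00529, adjusted 0.0397) and rho = 0.752 (p = 0.00171, adjusted 0.0183), and r = 0.625 without the farthest 2. Without Model_1337, r over the 5 pairs was between 0.68 and 0.876. Libraries share RNA extraction and depth across all their genes, and these relations say nothing of which cells hold the messages.

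**Figure D3:**
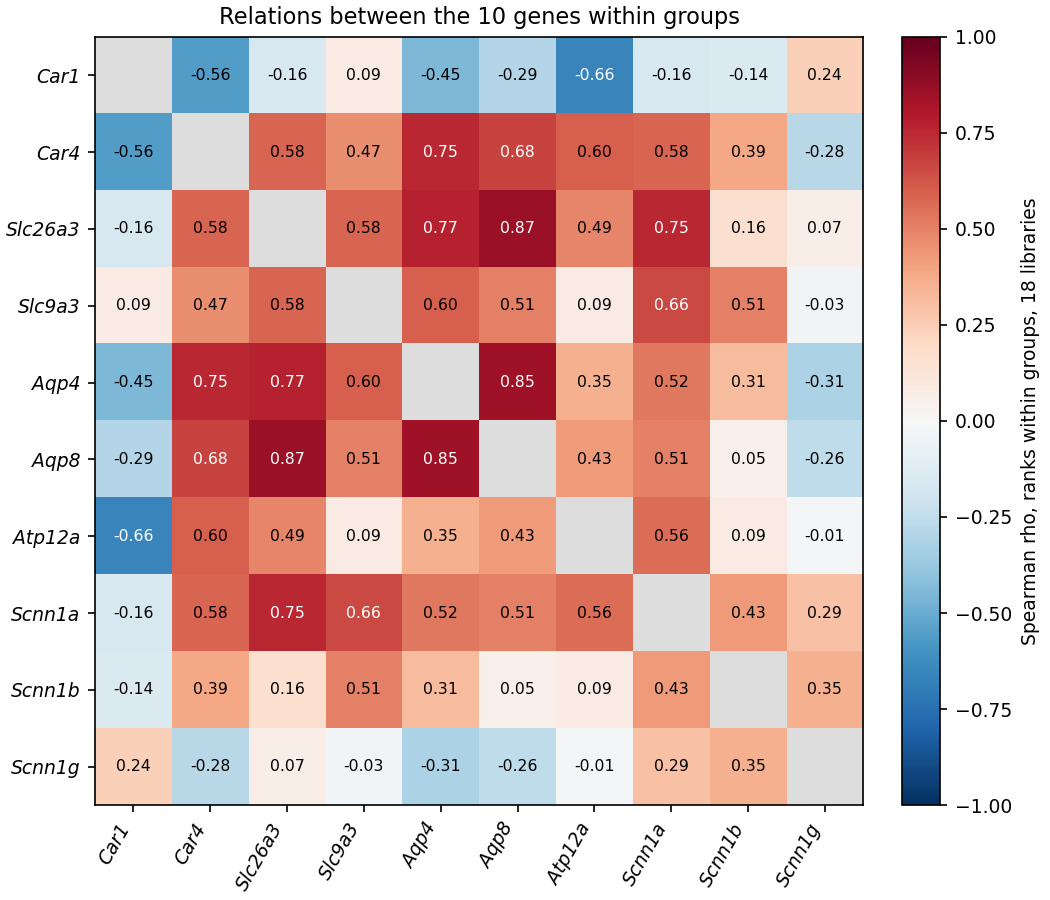
Spearman rho for each pair of the 10 genes over 18 libraries, with ranks taken within each group; red is above 0 and blue below, and the diagonal is grey. The block of Car4, Slc26a3, Aqp4 and Aqp8 is red throughout, with 0.87 for Slc26a3 and Aqp8, while Car1 is blue with most other genes, at -0.66 with Atp12a.

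Car1 gave negative rank correlations with Atp12a and with Car4, neither of which passed after adjustment. For Atp12a r was -0.693 (permutation p = 0.0132, adjusted 0.0677) and rho -0.657 (p = 0.00891, adjusted 0.0607). For Car4 r was 0.0413 (permutation p = 0.915, adjusted 0.956) and rho -0.562 (p = 0.029, adjusted 0.114), and without Model_1337, which was lowest of its group in both genes, r was -0.852 and rho -0.822. The sodium channel neighbours Scnn1b and Scnn1g gave r = 0.809 (permutation p = 0.00229, adjusted 0.0245), but a rho of 0.352 (p = 0.191, adjusted 0.369), and r was 0.817 without the farthest 2. Their rho was 0.943 within AKK, 0.829 within Model and -0.714 within Control, where Scnn1g had at most 34 counts.

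Part of the spread moved with markers of position along the gut. The posterior Hox genes Hoxb13, Hoxa13, Hoxd13, Hoxd12, Hoxd11, Hoxd10 and Hoxa11 mark the distal hindgut, and their summed level was 13.28 to 91.08 FPKM in AKK (median 38.45), 11.29 to 134.8 in Model (median 37.76) and 5.376 to 34.25 in Control (median 8.896). By mean FPKM, Hoxb13, Hoxa13 and Hoxa11 were the highest of the 7 in AKK and in Model. Of the 7, 5 were tested and 0 were called by edgeR or DESeq2 in any comparison. Hoxb13 had an unadjusted p under 0.05 in Model against Control and Hoxa11 in AKK against Control. The 5 did not move as one: log2 changes were above 0 for 4 in Model against Control, 2 in AKK against Model and 3 in AKK against Control. Hoxd10 was below 0 in each, at -0.171, -1.24 and -1.41. Atp12a was high where this sum was high: r = 0.847 (permutation p = 6e-05, adjusted 0.00225) and rho = 0.924 (p = 2e-05, adjusted 0.0015), with r = 0.766 without the farthest 2 libraries. The rho was 0.886 within AKK, 0.943 within Model and 0.943 within Control, and without Model_1337 r was 0.837.

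Car1 showed the opposite relation to the same markers, with r = -0.795 (permutation p = 0.00081, adjusted 0.0121) and rho = -0.771 (p = 0.00146, adjusted 0.0183), and r = -0.769 without the farthest 2 and -0.852 without Model_1337. Within groups its rho was -0.943 in AKK, -0.943 in Model and -0.429 in Control. Scnn1a gave r = 0.688 (permutation p = 0.00306, adjusted 0.0255) but rho = 0.562 (p = 0.0287, adjusted 0.114), and Scnn1g r = 0.155 and rho = -0.0476 (permutation, adjusted p = 0.796 and 0.912). No relation of the 10 genes with the sum of epithelial or of smooth muscle markers had an adjusted p under 0.05. With the hindgut markers as a covariate in edgeR, the log2 change of Atp12a was -0.78 in Model against Control (adjusted p = 0.538), and that of Scnn1g was 4.50 (adjusted p = 0.0678). The covariate was the mean log2(FPKM + 1) of the markers, not their sum. With it, 194 of all genes were called in Model against Control, against 2811 without it. With the smooth muscle markers as covariate 148 were called, and with the epithelial markers 1120. The median hindgut sum also differed between groups, so the covariate and the group term cannot be fully told apart. Whether the pieces of colon differed in position was not tested.

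**Figure D4:**
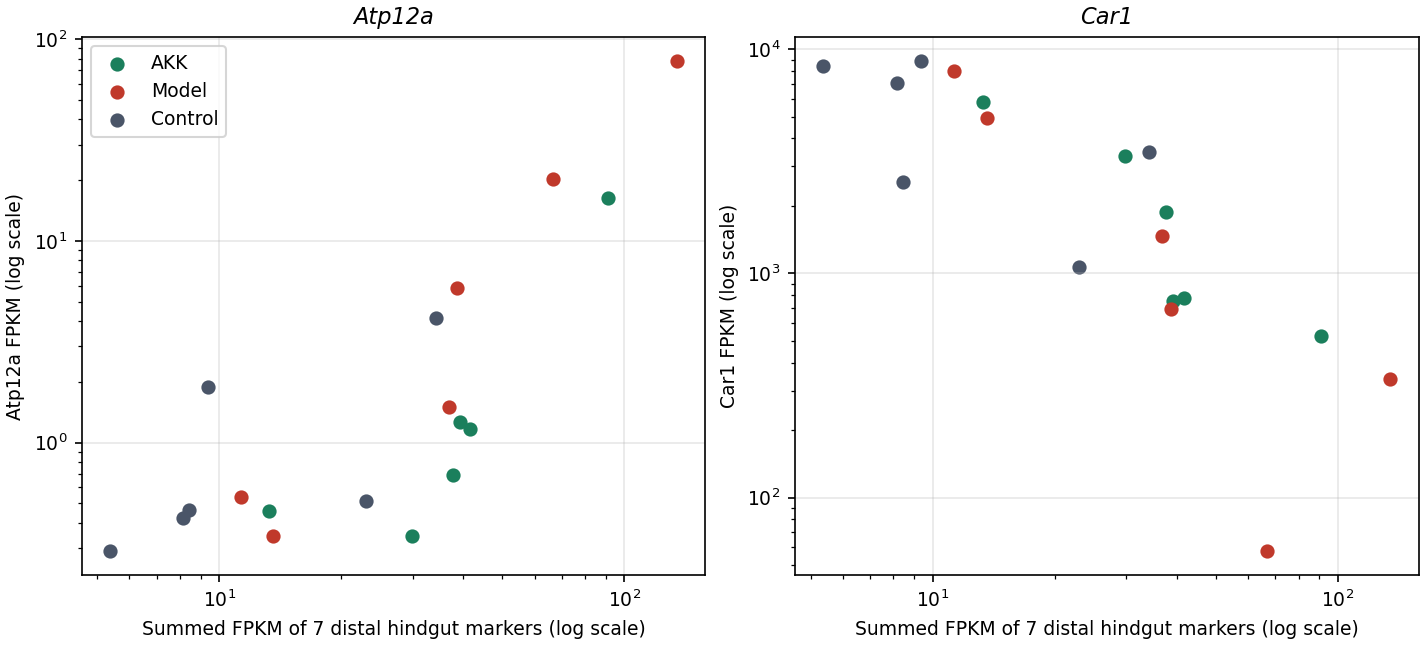
FPKM of Atp12a (left) and Car1 (right) on log y axes against the summed FPKM of 7 distal hindgut markers on a log x axis, 1 point per library, coloured by group. Atp12a climbs and Car1 declines with the sum; Model_1340 has the highest sum (134.8) and the highest Atp12a, and Model_1337 the lowest Car1.

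**Figure D5:**
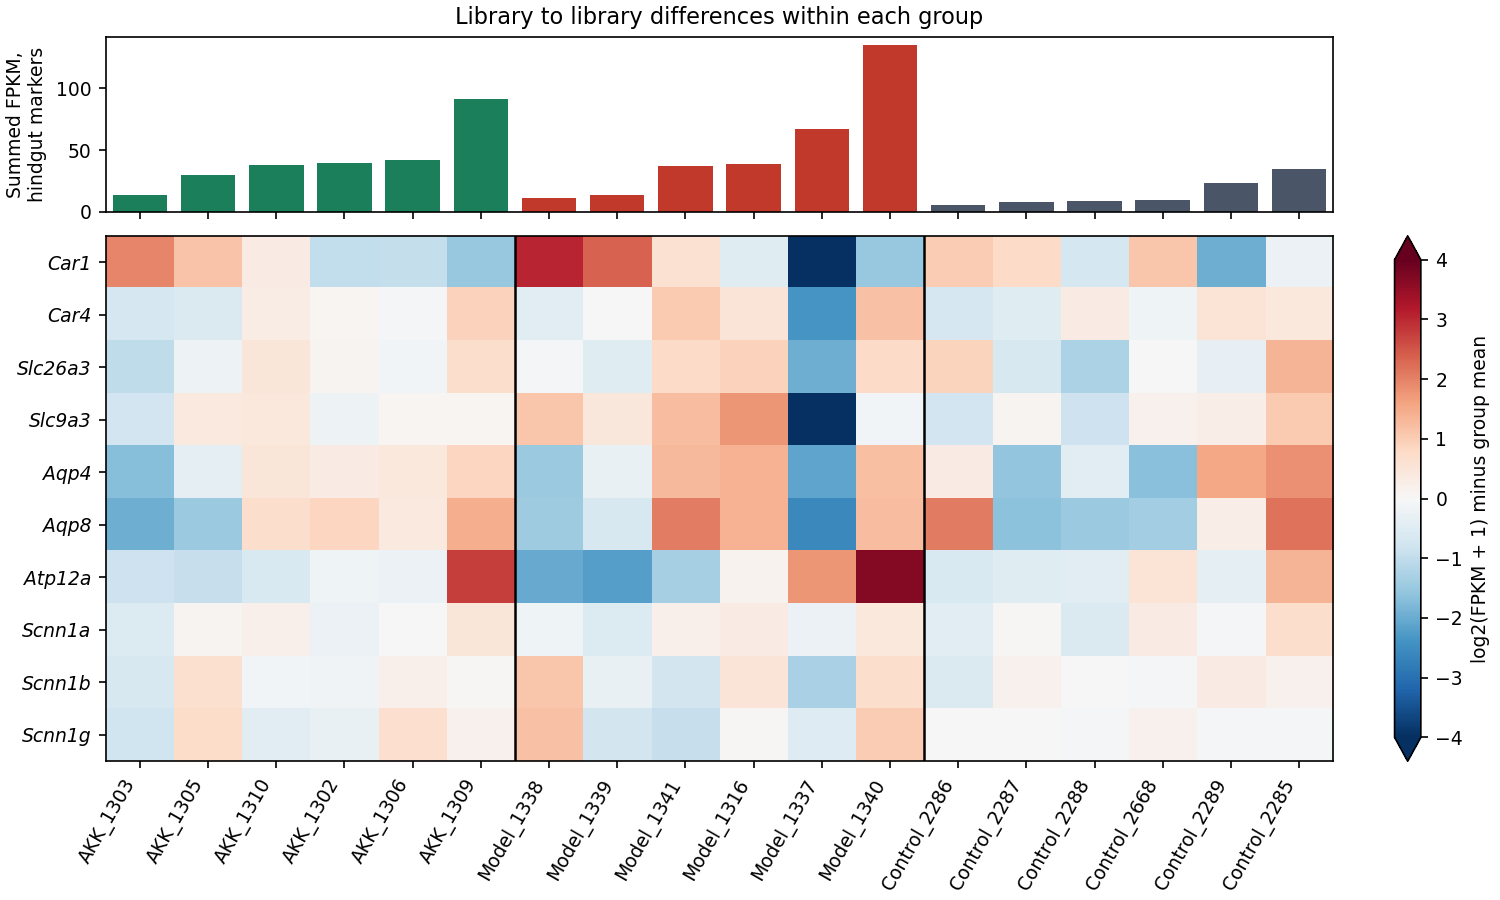
Colours give log2(FPKM + 1) minus the group mean for the 10 genes (rows) in 18 libraries (columns), with libraries ordered inside AKK, Model and Control by the bars above, the summed FPKM of the distal hindgut markers; colours saturate at the arrows of the scale. Model_1337 is blue for 9 of 10 genes and red for Atp12a, and within AKK and Model Car1 runs from red to blue where Atp12a runs from blue to red.

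Genes outside the set that most resembled each member were found by Spearman rho of deviations from the group means over the 18 libraries, as a description. For Car1 they were Ugt2b5 (rho = 0.973) and Cyp2c65 (0.969), both enzymes of foreign compound metabolism, with Cyp2c65 at 65.5 FPKM in AKK, 61.4 in Model and 154 in Control on average. For Atp12a they were the pseudogene Gpr137b-ps (0.95) and Hoxb13 (0.94), which is one of the hindgut markers. Scnn1g was nearest to Best2 (0.862) and the microRNA gene Mir6942 (0.802). Aqp8 was nearest to Tm6sf2 (0.907) and Chp2 (0.895), a calcineurin B homologue known to bind sodium and proton exchangers. Aqp4 was nearest to Smim31 (0.95) and the protease gene Tmprss2 (0.934). For Slc26a3 they were Phlpp2 (0.909) and Prr15 (0.868), and for Slc9a3 Cpped1 (0.886) and Nhsl1 (0.884). Car4 paired with Lrp10 (0.913) and Tnfrsf11a (0.907), Scnn1a with Trak1 (0.897) and Tpcn1 (0.882), and Scnn1b with Myo5c (0.81) and Nek6 (0.798).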

How the data were processed

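The deposited gene table holds read counts and FPKM per gene for 18 colon libraries; polyadenylated RNA was prepared with a strand-marking kit, per the labels' protocols. Cutadapt 1.9, HISAT2 2.2.1, StringTie 2.1.6, DESeq2, edgeR and mm10 are named in the submitters' processing notes, which give no annotation release and no strand option. The FPKM values were made by the authors and used as deposited. The count values were deposited unnormalized by the authors; 4, 8 and 12 occurred 2.36, 1.74 and 1.36 times as often as their neighbours, and dividing them by 4 was an alternative; how counts relate to fragments was not tested.

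Genes with at least 1 FPKM in at least 6 libraries were tested with edgeR 4.0.16 (TMM, quasi-likelihood, 1 model over 18 libraries, Benjamini-Hochberg over 14007 genes, R 4.3.3). That test returns no SE. The SE of each log2 change was derived as its absolute value over the square root of the F statistic. DESeq2 1.42.0, limma 3.58.1, other scalings and filters, covariates and leaving out libraries were alternatives; the hindgut covariate and the fit without Model_1337 and Model_1341 were chosen after seeing the data. Relations, figures and exact tests used Python 3.11.15, numpy 2.4.6, pandas 2.3.3, scipy 1.17.1 and matplotlib 3.10.9. The edgeR step was checked on simulated counts. The members, gene lists and motifs were chosen with earlier results of these data known. All members are named; of each list, the 2 called genes of largest absolute log2 change per comparison (Slc9a8, Nedd4l, Car11 and Hoxa11 were named beyond the rule, after their values were seen); and the 2 genes most like each member, predicted models left out. Some genes that this rule would name are not reported here. No 2 libraries were identical (the most alike pair had a chi-square of 40.19 per degree of freedom). The labels give no batch.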

Additional observations from a re-analysis of the deposited data

Results flagged for a closer look

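Among 51 sets of 6 libraries checked (10 genes and some of the marker sums, by group), 5 held a library far from the other 5. Its gap to the next value had to exceed 0.625 of the range. For normally distributed values that rule flags about 1 in 20 sets. FPKM values are skewed and sets share libraries, so that rate need not hold here. Atp12a was 16.35 FPKM in AKK_1309, with the next AKK library at 1.26, and 77.78 FPKM in Model_1340, with the next Model library at 20.3. AKK_1309 also stood apart in the summed distal hindgut markers, at 91.08 FPKM with the next AKK library at 41.66. In Model_1337 the surface colonocyte markers summed to 1791 FPKM, where the next Model library had 5629, and the squamous markers to 5856 FPKM, where the next had 1.40.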

How the results depend on the processing

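The changes of the 10 genes in 3 comparisons were recomputed under 34 settings, 18 of which left out 1 library. Fits that left out libraries kept the 14007 genes chosen on all 18 libraries. Of 1020 recomputed values, 921 kept their direction and call, 20 lost the call, 7 gained it and 72 changed sign. No paired analysis was possible because the groups share no library numbers. The causes were not tested.

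Of the 10 genes, those called in Model against Control numbered 2 with DESeq2 and without the libraries above 70000000 counts, and 0 with limma on log2(FPKM + 1), the exact permutation test, voom and the hindgut covariate; leaving out 1 library gave 1 to 2. In AKK against Control 0 were called with no filter, limma at either pseudocount, the smooth muscle or hindgut covariate and without the large libraries; leaving out 1 library gave 0 to 1. All genes called in Model against Control numbered 1843 with limma on log2(FPKM + 1), 939 with the 2 groups only, 0 with the exact permutation test, 1512 with voom, 1120, 148 and 194 with the epithelial, smooth muscle and hindgut covariates, and 1743 to 3408 without 1 library. In AKK against Model they numbered 12 with DESeq2 and with voom, 0 with the exact permutation test and without the large libraries, and 1 without Model_1337 and Model_1341. In AKK against Control they numbered 1841 with DESeq2, 378 with no filter, 2722 with the 2 groups only, 2448 with the exact permutation test, 3248 with voom, 1527, 251 and 160 with the 3 covariates, 56 without the large libraries, 2563 without Model_1337 and Model_1341, and 288 to 2132 without 1 library.

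Sign changes in Model against Control were as follows, as log2 changes. Slc26a3 was 0.06 and Aqp4 0.67 with the epithelial covariate, Aqp8 -0.036 with the smooth muscle covariate and -0.19 without the large libraries, and Atp12a -0.78 with the hindgut covariate. Slc9a3 was -0.55 with limma on log2(FPKM + 1) and on the exact test's scale, -0.76 with a pseudocount of 0.1, -0.027 with voom, -0.34 with the smooth muscle covariate and -0.12 without the large libraries. Leaving out 1 library gave -0.20 to 0.37 for Slc9a3, -0.38 to 0.40 for Aqp4 and -0.19 to 0.92 for Aqp8.

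In AKK against Model, Car1 was 0.63 with limma at either pseudocount and on the exact test's scale. Without the large libraries Car1 was 0.22, Car4 -0.13 and Scnn1a -0.067. With the epithelial covariate Car4 was -0.26, Slc9a3 -0.016, Aqp8 -0.30, Scnn1a -0.014 and Scnn1b -0.068. Scnn1b was -0.24 without Model_1337 and Model_1341, and Scnn1g 0.024 with voom. Leaving out 1 library gave -0.90 to 0.47 for Car1, -0.21 to 0.30 for Car4, -0.18 to 0.75 for Aqp8, -0.051 to 0.16 for Scnn1a and -0.042 to 0.52 for Scnn1b.

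In AKK against Control, Slc26a3, at 0.0066, was -0.003 with DESeq2, -0.006 with no filter, -0.03 with edgeR's own filter, -0.0083 with the 2 groups only and without Model_1337 and Model_1341, -0.0073 with counts divided by 4, -0.11 and -0.17 with the smooth muscle and hindgut covariates, -0.38 without the large libraries and -0.19 to 0.36 without 1 library. Aqp8 was -0.15 without the large libraries. Atp12a was -1.89 with the hindgut covariate, -1.0 without the large libraries and -0.82 to 2.12 without 1 library. Depth limits Scnn1g most, with 0 to 34 counts in Control.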
